A study of Arabidopsis thaliana with 6 samples.

Results

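The RNA of mature ovules of wild type Arabidopsis thaliana was described from 3 libraries, which are all the wild type libraries among the 6 of the study. The study set these ovules beside ovules with T-DNA insertions in the spliceosome genes PRP8A and PRP8B, named PRP8Aa prp8bb and given as a mixture of PRP8A;prp8b and prp8a;prp8b, which were not analysed here. The wild type plants were 6 weeks old and had grown at 22 °C and 60% humidity with 16 h of light and 8 h of dark. Ovules were dissected out of flowers at stage 13 to 14, when the embryo sac is complete (stage FG7). Ribosomal RNA was depleted from 800 ng of total RNA with an integrity number above 7, and stranded libraries were read as pairs of 100 bases. The labels call the 3 replicates biological and do not say whether they came from separate plants, so the spread between them may be technical in part. The labels name no ecotype.

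An ovule is the organ that becomes a seed after fertilization. Its outer part consists of integuments, which later form the seed coat, around a nucellus, and it is joined to the carpel by a stalk, the funiculus. Inside lies the embryo sac, the haploid female gametophyte, with an egg cell, a central cell and a pair of synergids that attract and receive the pollen tube. The embryo sac is a small share of the ovule's cells. In RNA from whole ovules, a low level from fewer cells and a low level from less RNA per cell cannot be told apart.

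Counts assigned to genes totalled 8497702, 12436159 and 12460805 in replicates 1, 2 and 3, and 22137 to 23773 of 33977 annotated genes had at least 1 count. Levels are given as counts per 1000000 of the library's total (CPM), or as CPM per kb of the gene's summed exon length where genes are compared with each other. A count of 0 allows up to 0.353, 0.241 and 0.241 CPM in the 3 libraries (3 counts of the total), and such limits and intervals cover counting error only. Replicate 1 stood apart from the others in 4 respects. Of its nonzero gene counts 77.6% were even numbers, against 47.7% and 48.6% in replicates 2 and 3. In genes of a single exon bin its bin counts were 0.516 of its gene counts, against 1.03 in each of the others. Whether each of its fragments was counted 2 times among the genes was not tested. With its gene counts halved, a choice made after seeing the data, a count of 0 would allow up to 0.706 CPM in it. A factor common to all genes would leave CPM as it is. Since 77.6% of the nonzero counts and not all were even, such a factor was not shown for every gene. The CPM of replicate 1 may thus be affected unevenly across genes. Replicate 1 also had the fewest exon bin counts, with 7361474 against 23086207 and 22552397. Mitochondrial genes took 6.53% of its counts, against 2.43% and 2.84%.

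Of 33655 nuclear genes, 17960 (53.4%) had at least 1 CPM in each of the 3 libraries and are called detected below. Of 27444 nuclear protein-coding genes, 17608 (64.2%) were detected. Without replicate 1, 18391 nuclear genes reached that level in both other libraries. A total of 8703 nuclear genes had no count in any library. The median detected gene had 20.3 CPM, or 11.4 CPM per kb, and the levels of the middle 50% of detected genes ran from 5.25 to 22.8 CPM per kb. The 1720 genes at a mean of 100 CPM or more held 52.2% of nuclear counts, and 10931 genes from 10 to under 100 CPM held 44.3%. Another 6122 genes from 1 to under 10 CPM held 3.32%. The spread between libraries depended on the level. The median coefficient of variation was 7.53% in the first of these classes, 10.1% in the second, 20.8% in the third and 96.3% in the 6179 genes above 0 and under 1 CPM.

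The nuclear transcriptome was spread over many genes. The 10 highest genes held 4.23% of nuclear counts, the 100 highest held 13.9 ± 0.249% (SD, n = 3) and the 1000 highest held 42.1%. It took 1538 genes to reach 50%. The single highest gene by CPM was BGLU18, which alone held 1.08 ± 0.0539% of nuclear counts (SD, n = 3).

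BGLU18 (AT1G52400, TAIR10 chromosome 1, 19514989 to 19518411, plus strand) codes for a beta-glucosidase of the endoplasmic reticulum that can release abscisic acid from its glucose ester. It had 3676, 4108 and 4039 CPM per kb in replicates 1, 2 and 3 (3941 ± 232, SD, n = 3), the highest level of any nuclear protein-coding gene in each library. Next came VSP1 (AT5G24780, chromosome 5, 8507590 to 8509201, minus strand), an acid phosphatase-like storage protein known for its response to jasmonate, with 2859, 2634 and 2801 CPM per kb. THI2.1, a thionin with antimicrobial activity, had 2161, 2991 and 2787 CPM per kb. The ranges of VSP1 and THI2.1 overlapped, so their order was not separated by the spread between libraries. LP1, a lipid transfer protein of the cell wall, followed with 1894, 1924 and 2097 CPM per kb, below every THI2.1 value.

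Among the 20 protein-coding genes highest per kb, photosynthesis, translation and lipid transfer recurred. The light-harvesting gene CAB1 had 1730 ± 219 CPM per kb and RBCS1A, a small subunit of Rubisco, had 1714 ± 157 (SD, n = 3), and their ranges overlapped. LHB1B2, another light-harvesting protein of photosystem II, was steadier, with 1593, 1490 and 1539 CPM per kb. AT5G60390, which codes for elongation factor 1-alpha, the carrier of aminoacyl-tRNA to the ribosome, had 1749, 1633 and 1628 CPM per kb. The metallothionein MT2B (1496 ± 168 CPM per kb), the lipid transfer proteins LTP6 (1472 ± 238) and LTP3 (1239 ± 173), and GILT (1172 ± 70.2), annotated as a thiol reductase-like protein, were also among the 20 (SD, n = 3). HSC70-1, a cytosolic chaperone made without heat stress as well as with it, had 1187, 1785 and 1549 CPM per kb, lowest in replicate 1 and highest in replicate 2. Ranked by CPM, which favours long transcripts, AT5G60390 (3883 ± 159 CPM), HSC70-1 (3850 ± 770) and LOS1 (2656 ± 55.3), which codes for elongation factor 2, were also among the 10 highest (SD, n = 3).

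**Figure D1:**
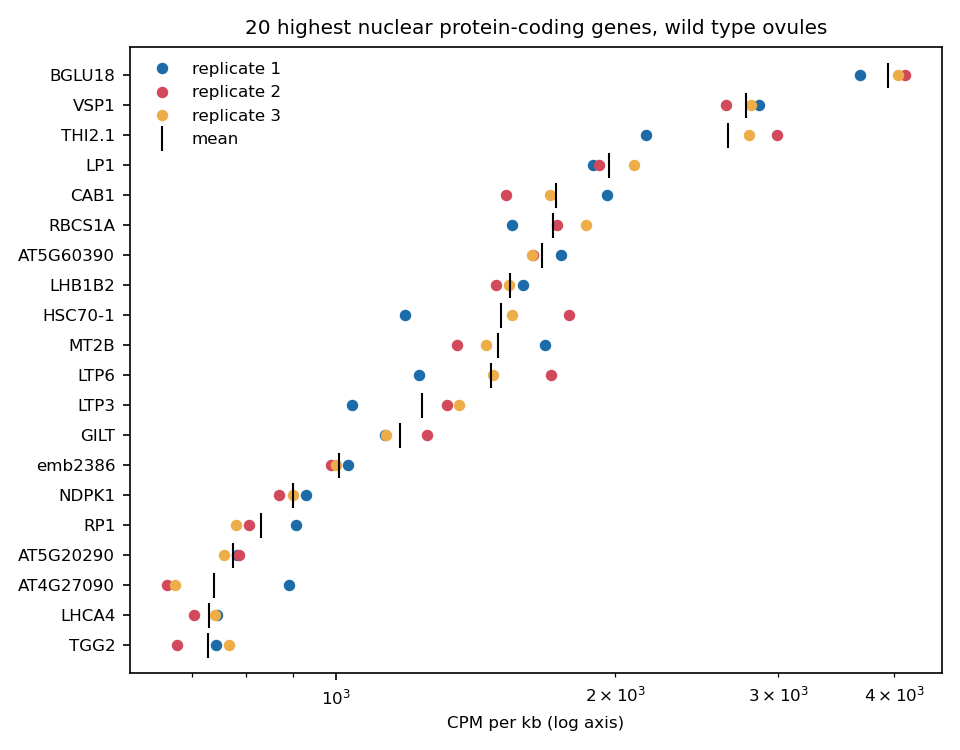
Levels of the 20 nuclear protein-coding genes with the highest mean CPM per kb in wild type ovules, on a log axis. Each point is 1 library and the vertical tick is the mean of 3; BGLU18 lies above all others in every library, and the replicates of HSC70-1 and THI2.1 spread more widely than those of emb2386 or AT5G20290.

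Genes without a protein product took 11 of the 20 highest places per kb among all nuclear genes. The highest was the snoRNA gene AT2G04965 (chromosome 2, 2185022 to 2185087, minus strand), with 12035, 15296 and 17473 CPM per kb on a length of 66 bases. That length is shorter than a read of 100 bases, so its level per kb is not comparable with those of longer genes. By CPM this gene ranked 40, with a mean of 986. The unnamed RNA locus ENSRNA049493837 had 14666, 11320 and 11908 CPM per kb, and it lies on the opposite strand of AT7SL-1, to which 14, 21 and 19 fragments were assigned. Another such locus, ENSRNA049493835, had 7140 ± 1156 CPM per kb, and both were among the 10 highest genes by CPM (SD, n = 3). ENSRNA049493670 (1914 ± 222 CPM per kb) and ENSRNA049495719 (1805 ± 444) lie on the strand opposite to BXL3 and AT1G49245, in that order (SD, n = 3). A precursor annotated as MIR4228 had 7116 ± 506 CPM per kb, the snoRNA gene AT5G02565 had 2785 ± 729 and the ncRNA gene AT3G41761 had 2013 ± 182 (SD, n = 3). The precursor annotated as MIR5642a (3257 ± 545) and the lncRNA gene AT3G06325 (3130 ± 306) overlap on the same strand of chromosome 3, so their fragments cannot be fully told apart. Near them, the lncRNA gene AT3G06355 had 4174, 1041 and 1393 CPM per kb, far higher in replicate 1 than in the others. AT3G41979, annotated as a ribosomal RNA gene, lies within AT3G06355 on the same strand and had no count in any library. Fragments of both cannot be fully told apart, so this lack of counts does not show that RNA of AT3G41979 was absent. All nuclear snoRNA genes together held 0.251 ± 0.0155% of counts, lncRNA genes 0.413 ± 0.0632% and miRNA precursors 0.240 ± 0.0280% (SD, n = 3). MIR5642a (mean of 1218 CPM) and MIR4228 (1124) made up most of the miRNA share. AT3G06355 (1106 CPM) and AT3G06325 (964) made up a large part of the lncRNA share, so both shares rest heavily on a few loci. Of the loci named here, AT3G41761, AT3G06325, MIR5642a and AT3G06355 lie together on chromosome 3, between 14195917 and 14200076. The ribosomal RNA gene AT3G41979 is annotated in the same stretch. How much of their counts is ribosomal RNA left after depletion was not tested, so these levels may not be those of a miRNA precursor or lncRNA.

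Organelle genes were ranked apart, and the highest plastid gene had more CPM per kb than any nuclear protein-coding gene in each library. The highest mitochondrial gene did so in replicate 1 alone. Genes located on the plastid chromosome took 8.91%, 11.6% and 11.3% of counts in replicates 1, 2 and 3. The highest were rbcL, the large subunit of Rubisco, with 16287, 20711 and 19438 CPM per kb, and psbA, the D1 protein of photosystem II, with 15628, 20070 and 20054. Their ranges overlapped, and both were lowest in replicate 1. The transfer RNA genes trnL (4329, 11207 and 10211 CPM per kb) and trnV (1971, 7760 and 7254) differed more between replicate 1 and the others. The gene atpH, for a subunit of ATP synthase, went the other way, with 5361, 4599 and 4469 CPM per kb. The widest differences among the organelle genes named here were at 2 mitochondrial loci, ATMG00020 (13790, 2685 and 4011 CPM per kb) and ATMG01390 (8939, 1189 and 1625). These loci held 5.27% of counts in replicate 1, 0.920% in replicate 2 and 1.34% in replicate 3. Without them the mitochondrial genes held 1.26%, 1.51% and 1.5%, so the higher mitochondrial share of replicate 1 was the share of these loci. ATMG01360 (1896, 2687 and 2687 CPM per kb), ATMG00070 (2125 ± 130) and ATMG00665 (1770 ± 123) completed the 5 highest mitochondrial genes (SD, n = 3). The summed exon lengths of ATMG00665, trnL and trnV are 22, 86 and 75 bases, each shorter than a read. Their levels and places per kb are therefore not comparable with those of longer genes. ATMG00665 had a mean of 38.9 CPM. The names and RNA types of mitochondrial genes were not used here. Ribosomal RNA left after depletion is therefore not set apart from other mitochondrial RNA in these levels and shares, and its part was not tested.

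Large gene families showed which parts of the growth machinery were abundant. Ribosomal protein genes were taken by the words of their product, leaving out products that name an organelle or hold certain other terms. Genes of organelle ribosomes whose product names no organelle may remain, and AT5G18380, annotated with a ribosomal protein S5 domain, was left out. Of the 347 genes taken, 317 were detected, and they held 6.25 ± 0.211% of nuclear counts (SD, n = 3). They made up 39 of the 100 protein-coding genes highest per kb, led by emb2386 (1007 ± 21.7 CPM per kb), RP1 (831 ± 66.4) and AT5G20290 (776 ± 15.3, SD, n = 3). Another 11 of the 100 were photosynthesis genes, 4 were elongation factors, where eEF-1Bb1 (417 ± 30.5 CPM per kb) followed AT5G60390 and LOS1, and 4 were ubiquitin genes, led by UBQ6 (611 ± 10.3), UBQ5 (607 ± 63.8) and UBQ11 (465 ± 13.5, SD, n = 3). All 15 tubulin genes were detected, with TUA4 at 333 ± 39.4 CPM per kb, TUB2 at 303 ± 18.3 and TUA2 at 291 ± 19.1 (SD, n = 3). Of 47 histone genes 40 were detected, with HTB4 at 303 ± 15 CPM per kb, AT4G40040 at 244 ± 33.2 and AT1G09200 at 227 ± 10.8 (SD, n = 3). Among actins ACT7 led with 371, 439 and 440 CPM per kb, against 98.9 ± 10.5 for ACT8 and 67.7 ± 2.33 for ACT2 (SD, n = 3).

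Of 37 aquaporin genes, whose proteins carry water across membranes, 21 (56.8%) were detected, against 64.2% of all nuclear protein-coding genes, and PIP3 (613 ± 85.6 CPM per kb), GAMMA-TIP (416 ± 24.1) and PIP1B (380 ± 76.5) led them (SD, n = 3). Of 33 expansin genes, which loosen cell walls, 15 (45.5%) were detected, with EXPA6 at 117 ± 22.6 CPM per kb, EXPA15 at 43.8 ± 11.7 and EXPB3 at 40.2 ± 10.2 (SD, n = 3). Of 128 lipid transfer genes 37 (28.9%) were detected, and all members together held 0.541 ± 0.0463% of nuclear counts (SD, n = 3), mostly in the LP1, LTP6 and LTP3 genes described above. Of 220 defensin-like genes, which code for small cysteine-rich secreted peptides, 38 (17.3%) were detected and 92 had no count in any library. LCR69 (252, 228 and 241 CPM per kb), LCR68 (58.9, 50.8 and 56.3) and AT1G77525 (24.2, 33.6 and 28.5) stood above the median of the detected defensin-like genes, 9.50 CPM per kb. Per the file headers, no option for fragments that match several places was set in the authors' counting, so single members with near-identical copies are uncertain.

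Genes known for ovule identity and integument growth were present in every library. Of 26 listed, 23 were detected, with a median of 22.1 CPM per kb over all 26 members, against 11.4 for all detected nuclear genes. The highest was ARF2, an auxin response factor that restrains integument cell division, with 132, 142 and 140 CPM per kb. The MADS-box genes that specify ovules were abundant in each library. STK had 46.0, 62.6 and 54.6 CPM per kb, SHP2 had 49.1, 61.7 and 53.6, and SEP2 had 91.7, 95.2 and 94.9. SEP3 varied more, with 39.5, 67.3 and 62.4 CPM per kb, and was lowest in replicate 1. INO, which is expressed in the outer layer of the outer integument, had 22.2, 22.5 and 24.3 CPM per kb, and BEL1, which specifies integuments, had 9.93, 11.6 and 10.9; STK, INO and BEL1 were named after their values were seen. WUS and SPL, which act early in ovule development, were below detection. WUS had no count in any library, SPL had 0, 0.0804 and 0.321 CPM, and KLU had 0.941, 1.13 and 0.642 CPM.

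The embryo sac lists (egg cell, synergid and central cell) had medians below the 11.4 CPM per kb of detected nuclear genes. They lay above the median of all nuclear genes, 2.04 CPM per kb. List medians include undetected members, and over detected members alone they were 9.57, 10.9 and 9.76 CPM per kb in turn. For the egg cell, 7 of 11 genes (63.6%) were detected, near the 64.2% of all nuclear protein-coding genes. The list median was 6.07 CPM per kb. The EC1 genes code for small proteins released by the egg cell that activate sperm. EC1.3 had 13.3, 9.46 and 8.65 CPM per kb, EC1.4 had 11.6, 8.59 and 10.03, EC1.1 had 11.04, 9.08 and 8.59, and EC1.5 had 10.7, 8.97 and 8.04. These 4 overlapped in range, and EC1.2 was below all their values, with 4.1, 7.0 and 6.19. The aspartyl protease genes AT2G35615 (12.02 ± 1.09 CPM per kb) and AT1G31450 (6.07 ± 1.12) were detected too (SD, n = 3). The transcription factor RKD2 lay around the threshold, with 1.18, 0.563 and 0.321 CPM, and GEX3 had 0.471, 0.563 and 0.241 CPM. RKD1 had 1 count, in replicate 2, and the homeobox gene WOX2 had none.

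Of 14 genes for synergid function and pollen tube reception, 11 were detected, with a median of 9.46 CPM per kb. The LURE1 peptides are secreted by synergids and guide the pollen tube. LURE1.5 had 9.87, 7.94 and 14.9 CPM per kb, LURE1.3 had 11.9, 7.68 and 12.2, and LURE1.1 had 6.56, 7.84 and 10.6. LURE1.4 (4.11, 1.80 and 2.60 CPM per kb) and LURE1.2 (1.38, 2.82 and 4.22) were lower in every library, and the copies are near-identical, so fragments may be unevenly placed among them. MYB98, the transcription factor that controls LURE1 genes, had 2.35, 2.49 and 1.93 CPM, or 1.21 ± 0.158 CPM per kb (SD, n = 3). ANNAT8 (10.9 ± 1.16 CPM per kb), AT1G47470 (11.7 ± 3.13) and NTA (1.07 ± 0.332), a membrane protein moved when the pollen tube arrives, were also detected (SD, n = 3). LRE, a membrane-anchored partner of the FER receptor in synergids, had 0, 0.241 and 0.161 CPM. FER, a receptor kinase used widely in the plant, was far higher than the synergid genes, with 105, 108 and 103 CPM per kb. Its relatives and partners were lower than FER. LLG1 had 33.0 ± 4.23 CPM per kb, HERK1 had 18.3 ± 2.37 and AT5G59700 had 4.41 ± 0.540 (SD, n = 3).

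Of 15 central cell genes, 14 were detected, with a median of 8.91 CPM per kb. The highest act in many other cells as well. MSI1, a histone-binding subunit of Polycomb and chromatin assembly complexes, had 49.0, 54.2 and 53.2 CPM per kb. DME, a DNA glycosylase that removes methylcytosine, had 24.5, 23.7 and 25.5, and the Polycomb gene FIE had 13.9, 14.5 and 13.8. The Polycomb genes that act in the central cell were far lower, with 1.53, 0.767 and 1.44 CPM per kb for FIS2 and 1.17, 0.999 and 1.23 for MEA. The imprinted gene FWA had 1.1 ± 0.294 CPM per kb, and the MADS-box gene AGL80 had 1.86 ± 0.510 (SD, n = 3). Its partner AGL61 had 0.706, 0 and 0.321 CPM and was not detected. Genes for small secreted proteins lay between these groups. AT3G04540 (14.1 ± 2.67 CPM per kb), AT1G26795 (13.6 ± 1.49), AT3G24510 (13.6 ± 0.610), LCR80 (10.6 ± 3.46) and AT2G20595 (8.91 ± 1.28) had levels close to those of the EC1 genes (SD, n = 3). The enzyme genes DD46 (7.42 ± 0.520 CPM per kb) and MAN3 (4.65 ± 1.05) were somewhat lower (SD, n = 3).

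**Figure D2:**
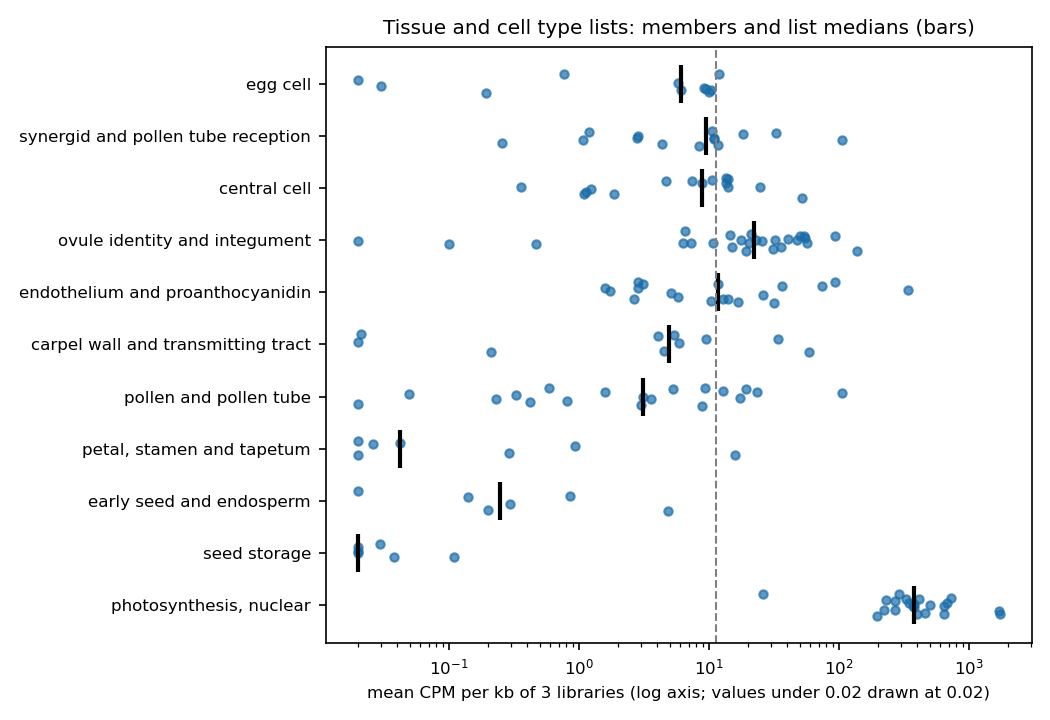
Mean level over 3 libraries of each member of 11 tissue and cell type lists, in CPM per kb on a log axis, with values under 0.02 drawn at 0.02. Black bars are list medians and the dashed line is the median of all detected nuclear genes (11.4 CPM per kb); photosynthesis genes lie far to the right of it, and seed storage genes sit at the left edge.

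Markers of other organs and stages were examined because dissected tissue can carry neighbouring cells. Of 19 pollen and pollen tube genes, 13 (68.4%) were detected, near the 64.2% of all nuclear protein-coding genes. Summed levels of the 19 genes were 418, 426 and 427 CPM. VGD1, a pectin methylesterase of the pollen tube, made up more than any other member, with 226, 246 and 244 CPM. AGP6 (20.5, 19.9 and 19.3 CPM), AGP11 (15.8, 18.8 and 17.98) and the receptor kinase gene AT4G39110 (61.9, 54.1 and 53.3) were likewise steady between libraries. Markers of the male germ line were near 0. DUO1 had 0, 0.161 and 0 CPM, GEX2 had no count, HAP2 had 0.941, 0.804 and 0.482 CPM, and MGH3 had 0.471, 0.482 and 0.321. MYB97 (0.471, 0.322 and 0.321 CPM) and MYB120 (1.65, 0.0804 and 0.482), transcription factors of the pollen tube, were below detection too. The part of pollen or pollen tubes in the results was not tested.

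Of 7 petal, stamen and tapetum genes, AP3 and PI were detected. AP3 had 17.7, 22.1 and 17.98 CPM, while its partner PI had 1.41, 1.05 and 1.2. The tapetum genes were at or near 0, with no count for DYT1, 1 count in all for TDF1 and for MS1, 0, 0.0804 and 0.161 CPM for AMS, and 0.471, 0 and 0 CPM for AT5G07230. Of 10 carpel wall and transmitting tract genes, 7 (70.0%) were detected, near the 64.2% of all nuclear protein-coding genes. The carpel list was led by ALC (48.9, 64.7 and 64.1 CPM per kb) and FUL (34.1, 31.6 and 35.7), followed by SPT (9.55 ± 1.27) and NTT (5.87 ± 0.238, SD, n = 3). CRC, a gene of carpels and nectaries, had 0.235, 0.0804 and 0.401 CPM, HEC1 had 1 count and HEC2 had none. Genes of the early seed were low. WOX9 (8.94, 11.2 and 9.95 CPM) and the endosperm gene AGL62 (1.18, 2.09 and 2.01) were detected, while PHE1 (0.235, 0.643 and 0.0803), MINI3 (0, 0.402 and 0.482), WOX8 (0, 0.241 and 0.241) and IKU2 (0, 0.161 and 0) were not. None of 6 seed storage genes was detected, with no count for SESA3, SESA4 and CRA1, and sums over all 6 genes of 0, 0.241 and 0.161 CPM. SESA2 had 0, 0.0804 and 0.161 CPM, and SESA1 and OLEO1 had 1 count each, in replicate 2.

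Nuclear photosynthesis genes were the most abundant of the 24 lists. All 22 were detected, with a median of 378.5 CPM per kb, and their summed levels were 14297, 14507 and 14881 CPM. LHCA4 (745, 703 and 741 CPM per kb), a light-harvesting protein of photosystem I, and PSBO1 (696, 654 and 670), a part of the oxygen-evolving complex, followed CAB1 and RBCS1A. The lowest member was RBCS1B, with 14.4, 36.3 and 26.9 CPM per kb, and it was the only one of the 22 to differ by 2 times or more between libraries. RBCS1B was named after its values were seen, and it is a near-identical copy of other Rubisco small subunit genes.

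Genes of small RNA and DNA methylation pathways formed another abundant list. All 10 were detected, with a median of 44.5 CPM per kb. AGO9, an ARGONAUTE protein known from ovules, where it limits the number of cells that enter the female germ line, had 236, 268 and 282 CPM per kb. AGO1, the main partner of microRNAs, had 171, 173 and 186, AGO4 had 108, 124 and 120, and AGO5 had 85.2, 91.4 and 86.9. The ranges of AGO9, AGO1, AGO4 and AGO5 did not overlap. In the jasmonate list 7 of 9 genes were detected, with a median of 54.1 CPM per kb. After VSP1 came VSP2 (402, 327 and 367 CPM per kb), LOX2 (276, 343 and 325), which makes jasmonate precursors, and OPR3 (61.9, 70.2 and 64.2), a later enzyme of the same route. AOC1 and AOC2, which code for allene oxide cyclase, were below detection, with 0.471, 0.724 and 0.562 CPM for AOC1 and 0.471, 0.161 and 0.0803 for AOC2.

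The auxin, cytokinin, gibberellin and brassinosteroid lists were each led by a receptor or signalling gene. In the auxin list 11 of 14 genes were detected. The response factors ARF8 (74.0, 82.6 and 83.6 CPM per kb) and ARF6 (60.0, 45.1 and 55.2) and the receptors TIR1 (53.0, 39.6 and 45.1) and AFB3 (38.1, 35.1 and 38.2) led it. The auxin biosynthesis genes YUC1 (0.471, 0.804 and 0.883 CPM), YUC2 (0.235, 1.29 and 0.642) and YUC4 (0.706, 0.161 and 0) were below detection. In the cytokinin list the receptors AHK3 (29.9 ± 2.29 CPM per kb), AHK2 (18 ± 1.28) and AHK4 (4.61 ± 0.499) and the oxidase gene CKX5 (4.8 ± 1.4) were detected (SD, n = 3). CKI1, a histidine kinase of the female gametophyte, had 0, 0.724 and 0.963 CPM, and CKX3 had 0.471, 1.21 and 0.803. In the gibberellin list 10 of 11 were detected, led by the DELLA repressors RGA (73.8 ± 2.54 CPM per kb), RGL1 (68.5 ± 10.9) and RGL2 (45.4 ± 3.0) and the biosynthesis gene GA20OX2 (29.95 ± 2.77), while GA20OX1 had 0.235, 0.482 and 0.241 CPM (SD, n = 3). All 8 brassinosteroid genes were detected, led by the receptor BRI1 (64.0 ± 3.82 CPM per kb), BIN2 (28.5 ± 2.75), BES1 (24.4 ± 1.92) and BAK1 (23.3 ± 0.376), and all 6 ethylene genes (SD, n = 3). Of the ethylene genes, the transcription factor EIN3 had 74.9 ± 3.55 CPM per kb, the signalling protein EIN2 had 26.3 ± 0.969 and the kinase CTR1 had 23.7 ± 1.98 (SD, n = 3).

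All 9 mitotic cell cycle genes were detected, led by KN (62.2, 62.8 and 60.3 CPM per kb), a syntaxin of the dividing plate, CDKB2;1 (45.2 ± 3.80), CYCB1;2 (42.3 ± 5.09) and CDKA;1 (26.5 ± 2.66, SD, n = 3). Of 7 genes of meiosis and of the megaspore mother cell, which act before this stage, 4 (57.1%) were detected. Among all nuclear protein-coding genes 64.2% were detected. The median over the 7 was 1.41 CPM per kb. DMC1 had 10.02, 10.9 and 9.06 CPM per kb, SDS had 3.62 ± 0.256, ZYP1a had 1.42 ± 0.297 and SPO11-1 had 1.41 ± 0.264 (SD, n = 3). SYN1 had 0.941, 2.57 and 2.97 CPM, ASY1 had 0, 0.643 and 0.161, and KNU had no count. All 12 arabinogalactan and early nodulin-like genes, which code for cell surface glycoproteins, were detected, with a median of 37.6 CPM per kb. AGP15 had 81.3, 239.6 and 176 CPM per kb and was lowest in replicate 1, ENODL15 had 85.5, 75.4 and 70.7, AGP1 had 59.2, 94.1 and 77.9, and ENODL14 had 55.5, 84.8 and 73.8. Of 10 sugar and amino acid transport genes, 7 (70.0%) were detected, near the 64.2% of all nuclear protein-coding genes. UMAMIT14, an amino acid exporter, had 23.57, 13.6 and 18.8 CPM per kb, SUC2, the phloem sucrose carrier, had 17.5, 16.4 and 20.3, UMAMIT18 had 7.51 ± 1.54 and SWEET15 had 4.57 ± 0.985 (SD, n = 3). SWEET11 (1.88, 0.563 and 1.04 CPM), SWEET12 (1.65, 0.885 and 0.883) and UMAMIT28 (1.88, 1.21 and 0.963) lay around the threshold.

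The libraries were then compared with each other. Over detected genes, the correlation of log2(CPM + 1) was 0.991 between replicates 2 and 3, 0.980 between 1 and 3 and 0.970 between 1 and 2. These are correlations across genes of libraries from 1 tissue, and genes are not independent replicates. The biological coefficient of variation of the 3 libraries, estimated with edgeR across 18509 genes, was 0.148. It was 0.0803 without replicate 1, 0.151 without replicate 2 and 0.199 without replicate 3, so replicates 2 and 3 were the closest pair. Of the 12651 nuclear genes at a mean of 10 CPM or more, 303 (2.4%) differed by 2 times or more between their highest and lowest library. Replicate 2 was at least 2 times replicate 1 in 158 of them (1.25% of the 12651), and replicate 1 was at least 2 times replicate 2 in 132 of them (1.04%). Without replicate 1, detected genes past 2 times numbered 124, against 1017 (5.66% of detected genes) with all 3 libraries.

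Heat shock genes were among those that differed between libraries. All 4 members of the heat shock list at a mean of 10 CPM or more differed by 2 times or more, against 2.4% of all genes at that level. HSP70 (AT3G12580, chromosome 3, 3991117 to 3993886, minus strand), a stress-induced chaperone, had 42.6, 393.9 and 216.5 CPM in replicates 1, 2 and 3. HSP90.1 had 20.5, 144 and 80.01 CPM, HSP101, which dissolves protein aggregates, had 68.4, 407 and 236, and HSFA2, a transcription factor that sustains the heat response, had 17.3, 119 and 68.3. In each of them replicate 1 was lowest, replicate 2 highest and replicate 3 close to the middle. The same order, found in 25.8% of detected genes, held for the HSP20-like gene AT1G59860 (2.12, 25.1 and 13.3 CPM), the DNAJ gene AT2G20560 (7.88, 76.0 and 46.8) and the FKBP-type isomerase gene AT5G48570 (12, 113 and 59.3). The small heat shock genes HSP18.2 (2.12, 1.77 and 1.85 CPM), HSP17.6A (0.941, 2.33 and 1.85), HSP17.6II (0.235, 1.45 and 0.482), HSP23.6-MITO (0, 0.563 and 0.161) and HSP21 (0, 0.0804 and 0.0803) were under 3 CPM in every library; HSP18.2 was named after its values were seen.

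Endothelium genes, which act in the inner integument and make the proanthocyanidins of the future seed coat, followed the same order. All 19 were detected, 15 of them in the order replicate 2, 3, 1, which 25.8% of detected genes had. Of the 13 at a mean of 10 CPM or more, 9 differed by 2 times or more. Of all genes at that level, 2.4% did. Summed levels of the 19 genes were 725, 1523 and 1172 CPM. The first enzymes of the flavonoid route differed less than the later ones. CHS, chalcone synthase, had 227, 439 and 351 CPM per kb, CHI had 25.2, 48.1 and 37.2, F3H had 40.6, 106 and 76.0, and FLS1, on the branch to flavonols, had 79.0, 109 and 91.4. The later enzymes lead to proanthocyanidins. DFR (AT5G42800, chromosome 5, 17164093 to 17166032, minus strand) had 3.06, 35.5 and 20.4 CPM, LDOX had 5.65, 39.8 and 25.3, and BAN, the anthocyanidin reductase, had 16.0, 74.2 and 45.1. The genes for transport into the vacuole showed the same order, with 11.1, 64.7 and 43.7 CPM for AHA10, 3.53, 16.2 and 11.6 for TT12, and 3.77, 18.3 and 12 for TT19. Of the regulators, TT8 had 6.12, 12.6 and 12.3 CPM and TT2 had 1.18, 4.34 and 4.33, while TTG1, which also acts elsewhere in the plant, had 21.8, 22.9 and 21.6 and did not follow the order. BAN, AHA10, TT12, TT19, TT8, TT2 and TTG1 were named after their values were seen.

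Other members with large ratios were high in replicate 1. AT2G05540, annotated as a glycine-rich protein, had the largest ratio of all, with 35.1, 0.241 and 8.43 CPM. It rests on 298 against 3 counts in replicates 1 and 2, a ratio of 145 with a 95% counting interval of 49.3 to 708.9 (48.8 to 712.9 with the counts of replicate 1 halved). The annotated aluminium-induced protein AT3G15450 had 709.8, 98.1 and 444 CPM, CCL had 120.0, 16.0 and 65.6, and the nitrilase NIT2 had 86.8, 11.8 and 46.2. NAP, a NAC transcription factor known from leaf senescence, had 26.7, 2.49 and 11.1 CPM. AT2G25450, a putative 2-oxoglutarate-dependent oxygenase, had 25.2, 2.41 and 14.0, AT2G33850, an E6-like protein, had 19.8, 1.77 and 10.4, and AT3G10020 had 62.8, 8.20 and 15.5. In all 8 of these genes replicate 1 was highest, replicate 2 lowest and replicate 3 between them. DIN10, named after its values were seen and known as a gene induced in the dark, had 251, 39.1 and 132 CPM. The rest of the 20 largest ratios were higher in replicates 2 and 3: AT3G49270, extensin-like (3.3, 26.8 and 16.1 CPM), AT4G15750, an inhibitor-like protein of invertase or pectin methylesterase (10.6, 75.8 and 45.7), and the lncRNA gene AT2G47895 (3.3, 23.1 and 16.1). The snoRNA gene AT1G06463 (3.41, 15.3 and 23.8 CPM) was the only one of the 20 that was highest in replicate 3.

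**Figure D3:**
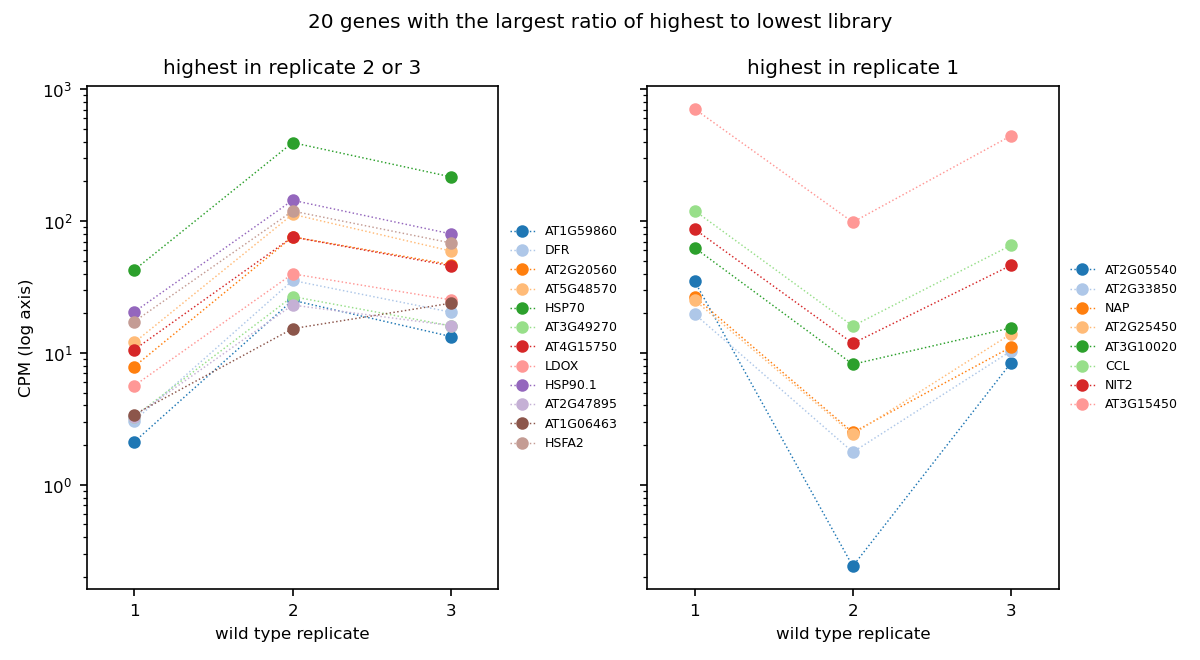
CPM on a log axis in each of the 3 wild type libraries for the 20 genes of mean 10 CPM or more with the largest ratio of highest to lowest library. Dotted lines join the points of 1 gene and do not stand for an order of replicates; replicate 3 lies between the others in every gene except AT1G06463.

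Circadian clock genes differed between libraries in part. Of 12, 11 were detected, and 4 of the 8 at a mean of 10 CPM or more differed by 2 times or more. Of all genes at that level, 2.4% did. LHY, a morning-phased clock gene, had 76.0, 245 and 174 CPM, and its partner CCA1 had 29.4, 63.0 and 46.9. GRP7, an RNA-binding protein of the clock's output, went the opposite way, with 76.4, 28.7 and 42.1 CPM. TOC1 (59.8, 48.3 and 55.6 CPM) and PRR7 (71.3, 62.2 and 62.7) differed by under 1.5 times, and ELF4 had 0, 0.161 and 0.0803. The labels give no time of day for the dissections. CCA1 was named after its values were seen.

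No member of the egg cell, synergid, central cell, ovule identity, carpel or pollen lists at a mean of 10 CPM or more differed by 2 times. That covers 1, 5, 4, 21, 5 and 9 genes in turn. The lists of auxin, cytokinin, gibberellin, brassinosteroid, ethylene, jasmonate and small RNA genes held none either, over 10, 4, 7, 7, 6, 7 and 10 genes at that level. In the mitotic cell cycle list 1 of 9 genes differed by 2 times or more, in the photosynthesis list 1 of 22 and in the arabinogalactan list 2 of 8. The share among all genes at that level was 2.4%, and lists of these sizes are too small for a count of 0 to be set apart from it.

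**Figure D4:**
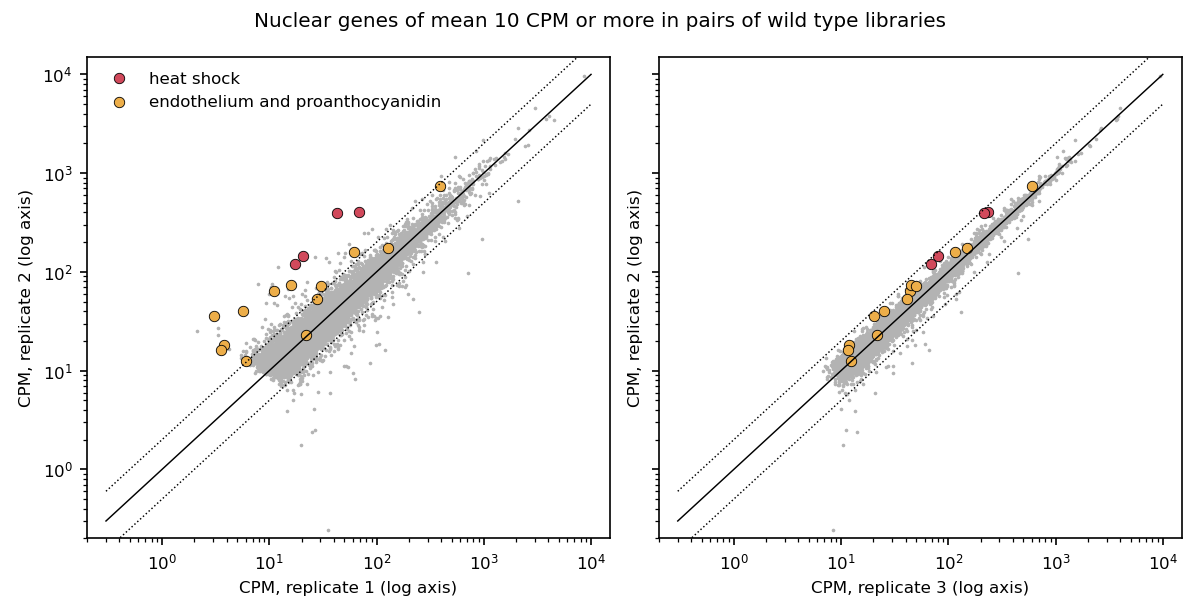
CPM of nuclear genes at a mean of 10 CPM or more in replicate 1 against replicate 2 (left) and in replicate 3 against replicate 2 (right), on log axes. The solid line marks equal levels and the dotted lines 2 times; heat shock genes (red) and most endothelium genes (orange) lie above the upper dotted line on the left and between the lines on the right.

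The place of replicate 3 was followed in all genes that differed by 2 times or more between replicates 1 and 2 and had a mean of at least 20 CPM in those libraries. Position 0 stands for the level of replicate 1 and position 1 for that of replicate 2, on a linear scale of CPM. Of 189 such genes among 9046, replicate 3 lay between the others in 188, at a median position of 0.579 (middle 50% from 0.509 to 0.660). It lay between them in all 97 genes that were higher in replicate 2, at a median of 0.547, and in 91 of 92 that were higher in replicate 1, at a median of 0.608. Choosing genes by their difference between a pair of libraries favours a place between them for the remaining one. The other pairs gave few genes and few such places: 53 genes chosen between replicates 1 and 3, with replicate 2 between them in 7, and 13 chosen between replicates 2 and 3, with replicate 1 between them in none. The cause of this common ordering was not tested, and it cannot be told apart from the other respects in which replicate 1 differed.

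**Figure D5:**
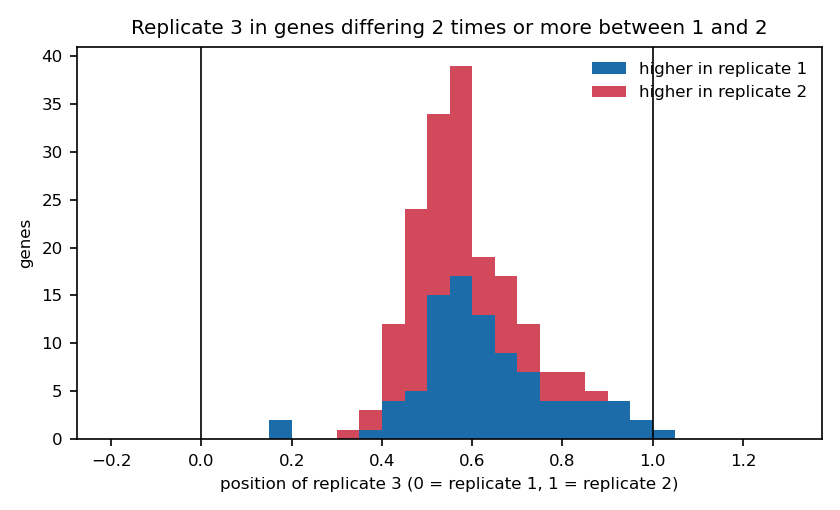
Position of replicate 3 between replicate 1 (0) and replicate 2 (1), on a linear scale of CPM, for the 189 genes that differed by 2 times or more between replicates 1 and 2; stacked bars count genes higher in replicate 1 (blue) and in replicate 2 (red). Most genes lie between 0.4 and 0.9, around a median of 0.579.

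Stretches before gene starts are shown for some of the genes that moved together between libraries, all of which hold a motif marked below. CHS is among them although it differed by under 2 times between its highest and lowest library. Each stretch is up to 250 bases before the annotated gene start in the TAIR10.1 genome of RefSeq. It is cut where another annotated gene begins, and is read 5′ to 3′ on the strand of the gene. Capitals mark the heat shock element and a second pair of its units in HSFA2, the G-box CACGTG in the flavonoid genes, and TATCCA in 2 genes that were high in replicate 1. Heat shock factors bind inverted repeats of GAA, the G-box is bound by bHLH and bZIP factors, and TATCCA is known from promoters of rice amylase genes that respond to sugar starvation.
HSFA2 (chr2:11135466-11135623, plus strand): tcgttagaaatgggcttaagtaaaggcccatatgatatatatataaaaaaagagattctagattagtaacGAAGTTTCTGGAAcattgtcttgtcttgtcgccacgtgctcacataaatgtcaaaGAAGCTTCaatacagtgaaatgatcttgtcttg
DFR (chr5:17166033-17166282, minus strand): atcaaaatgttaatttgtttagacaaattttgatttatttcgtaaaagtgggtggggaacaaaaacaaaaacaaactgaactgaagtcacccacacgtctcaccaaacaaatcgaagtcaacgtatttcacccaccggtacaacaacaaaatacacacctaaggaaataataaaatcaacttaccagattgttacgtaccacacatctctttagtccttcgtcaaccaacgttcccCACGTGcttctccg
BAN (chr1:22792804-22793053, minus strand): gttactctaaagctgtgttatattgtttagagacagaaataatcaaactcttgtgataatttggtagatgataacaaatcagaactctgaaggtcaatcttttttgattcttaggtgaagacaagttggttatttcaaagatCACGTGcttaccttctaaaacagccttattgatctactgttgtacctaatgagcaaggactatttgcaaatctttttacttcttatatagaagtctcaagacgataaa
CHS (chr5:4488226-4488475, plus strand): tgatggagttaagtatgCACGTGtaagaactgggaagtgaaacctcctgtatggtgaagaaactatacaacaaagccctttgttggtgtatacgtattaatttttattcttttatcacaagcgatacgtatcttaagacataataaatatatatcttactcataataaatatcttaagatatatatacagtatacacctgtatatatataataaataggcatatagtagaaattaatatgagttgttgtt
AT2G05540 (chr2:2032904-2033153, plus strand): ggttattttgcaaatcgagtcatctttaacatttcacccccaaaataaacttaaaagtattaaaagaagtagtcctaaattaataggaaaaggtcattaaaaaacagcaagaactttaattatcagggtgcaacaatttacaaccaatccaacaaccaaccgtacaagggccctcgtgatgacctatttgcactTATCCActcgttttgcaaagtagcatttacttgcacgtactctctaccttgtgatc
AT2G25450 (chr2:10831656-10831905, minus strand): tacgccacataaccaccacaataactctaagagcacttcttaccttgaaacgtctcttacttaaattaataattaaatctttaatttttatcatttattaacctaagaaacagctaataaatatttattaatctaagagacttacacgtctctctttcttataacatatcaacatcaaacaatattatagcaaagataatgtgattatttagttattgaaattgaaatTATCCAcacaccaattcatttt

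For the counts of matches, the whole 250 bases before the gene start were read on both strands over 27443 nuclear protein-coding genes, including bases within or beyond a neighbouring gene, which are left out of the stretches shown. The heat shock element has the units GAA, TTC and GAA in this order, each parted from the next by NN. It stood in 106 windows (0.386%), that of HSFA2 included, and HSFA2 also has a G-box that is not in capitals. The element stood in 2 of 155 genes (1.29%) at least 2 times higher in replicate 2 than in replicate 1. In the opposite direction it stood in 2 of 128 (1.56%). Pairs of its units stood in 16.2% of all windows, and in 15.5% and 16.4% of these sets in turn. No match of the element lay in the windows of HSP70, HSP90.1 or HSP101. The windows end at annotated gene starts, which may differ from the starts of transcription. A lack of a match in them therefore does not show that a promoter lacks the element. The G-box stood in 6.49% of all windows and in 7.69% of those of genes at a mean of 10 CPM or more. It stood in 22 of 155 (14.2%) of genes at least 2 times higher in replicate 2 than in replicate 1, and in 10.9% of those at least 2 times higher in replicate 1. In the endothelium list 5 of 19 had it, namely CHS, F3H, DFR, BAN and TTG2. The G-box of F3H lies outside any stretch defined for display, since AT3G51238 on the opposite strand covers the bases next to the F3H start. LDOX, AHA10, TT12 and TT19 had larger ratios between libraries than CHS and no G-box. TATCCA stood in 13.6% of all windows, in 14.6% at a mean of 10 CPM or more, in 11.6% of the genes higher in replicate 2 and in 33 of 128 (25.8%) of those higher in replicate 1. Of the genes described above as high in replicate 1, AT2G05540 and AT2G25450 had it, CCL had it within the neighbouring gene AT3G26730, and AT3G15450, NIT2, NAP, AT2G33850, AT3G10020 and DIN10 had none. The evening element AAATATCT, known from clock-controlled promoters, stood in 4.78% of all windows, in 7.10% of genes higher in replicate 2 and in 11.7% of those higher in replicate 1. These shares are descriptions without a test, and a match of letters is not a binding site.

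The second table counted fragments in exon bins, the pieces into which annotated exons are divided. In 14896 detected genes with at least 2 bins, 86.4%, 92.6% and 92.4% of 142875 bins had a count in replicates 1, 2 and 3, the lowest share being in the library with the fewest bin counts. A total of 7368 bins (5.16%) had no count in any library. Short bins were empty most often, with 29.5% of bins up to 25 bases, 6.23% from 26 to 100, 1.78% above that and up to 300 and 0.405% above 300 bases. Counts were balanced between both sides of genes. The median share of bin counts in the bins on the 3′ side of a gene's middle was 49.3%, 49.7% and 50.1%, so no library leaned to either end. Genes with more bins were higher on average. The median was 7.32 CPM per kb in detected genes of 1 bin, 12.03 in those of 5 to 9 bins and 14.4 in those of 20 or more.

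Bin counts also gave the difference between replicates 1 and 2 from a separately counted table of the same libraries. Over 12034 genes, the log2 ratio of replicate 2 to replicate 1 had a correlation of 0.948 between both tables. Of 277 genes that differed by 2 times or more in gene counts, all 277 had the same direction in bin counts and 240 also differed by 2 times or more. For HSP70 the ratio of replicate 2 to replicate 1 was 9.25 in gene counts and 8.93 in bin counts, for HSP101 it was 5.96 and 6.05, for DFR 11.6 and 12.1, and for BAN 4.64 and 5.22.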

How the data were processed

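Per the labels, RNA of wild type ovules was sequenced in 3 libraries, which were grouped by their labelled genotype. The tools named in the submitters' processing notes are Trimmomatic, STAR, DESeq2 and the featureCounts program from Subread 1.6.0, and the build is TAIR10. Per the file headers, the authors counted read pairs per gene with featureCounts 1.6.0, strand setting 1 and the annotation of release 37, and deposited these counts without normalization. The authors' exon bin table gives counts in which a fragment enters each bin that it overlaps. The other deposited tables were not used here.

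CPM is the count over the column total, times 1000000. Nuclear genes were those on chromosomes 1 to 5. A gene was detected at 1 CPM or more in each library. Names, types and promoter letters came from RefSeq's TAIR10.1, which holds the identifiers of 32548 of 33977 genes, with the files' coordinates in 99.95% of these; plastid names were matched by coordinates for 123 of 133 genes. With a single group no test was made. Spread was estimated with edgeR 4.0.16 (TMM, filterByExpr) in R 4.3.3 and checked on simulated data; DESeq2 1.42.0 size factors were an alternative. The widest 95% Wilson interval of an origin's share spanned 0.0509 percentage points. Python 3.11.15, numpy 2.4.6, pandas 2.3.3, scipy 1.17.1 and matplotlib 3.10.9 made the tables and figures.

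The members and lists were chosen with earlier results of these data known. Of 280 members in 24 lists, 278 were found. The text names the 20 nuclear genes highest per kb and the 10 highest by CPM; the 5 highest plastid and mitochondrial genes per kb; the 4 highest and the undetected members of each list; all egg cell, synergid and central cell genes; the 20 largest ratios between libraries; and the 3 highest genes of each family. Of the genes named by this rule, 1 is not reported here. Other names were chosen after their values were seen, the motif of heat shock unit pairs among them.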

Additional observations from a re-analysis of the deposited data

How the results depend on the processing

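The number of detected nuclear genes (17960) ran from 16800 to 19401 over other thresholds, scalings and definitions, and from 18073 to 18391 when 1 library was left out. The share of nuclear counts in the 100 highest genes was 13.9%, 11.98% when genes were ranked per kb, and 13.3% without noncoding genes. By exon bin counts the nucleus held 91.0% and the plastid 6.50% of counts, against 85.5% and 10.6% by gene counts; the cause was not tested. The coefficient of variation of 0.148 ran from 0.0803 to 0.199 when 1 library was left out, and was 0.133 with the counts of replicate 1 halved. Detected genes that differed by 2 times or more numbered 1017, but 303 at a mean of 10 CPM or more, where fewer genes enter, and 124 to 839 when 1 library was left out. Of the 20 genes highest per kb, 11 were also among the 20 highest by CPM. List medians moved by less than the SD between replicates in 113 of 167 cases, and with TMM scaling all 24 did. With CPM in place of CPM per kb 4 of 24 did. There the unit itself changed, so these 24 cases, which are among the 167, do not measure how stable the medians are. Medians of 12 lists lay above that of detected genes, and 11 to 13 did under the alternatives. Counting every identifier other than ATCG and ATMG as nuclear (17970 detected genes) and taking ratios from exon bins (1072 genes past 2 times) were chosen after seeing the data. No paired analysis was possible because the libraries form 1 group and no test was made. Genes under 1 CPM rest on few counts, so their levels and orders are not resolved at this depth.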
